A study of Mus musculus with 6 samples.

Results

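The genes described here are 10 immediate early genes, chosen by symbol from the 31626 genes of the deposited FPKM tables: Egr1, Egr2, Egr3, Fos, Fosb, Jun, Junb, Jund, Ier2 and Ier3. FPKM is the number of fragments on a gene relative to the length of the gene and to all mapped fragments of the library. Each symbol matched 1 row. The series asks how deletion of Dot1l, which encodes a histone H3 methyltransferase, changes RNA levels in cells transformed by the leukaemia oncogene MN1. There were 3 Dot1l-deleted libraries (Dot1l -/-, day 7 after transduction with cre) and 3 control libraries (Dot1l flox/flox, day 7 after a control transduction). Cells of both groups were C57Bl/6 common myeloid progenitors carrying the retroviral vector MSCV-MN1-IRES-GFP. They grew in M3234 medium with FBS, IL3, IL6 and SCF and were sorted before RNA isolation. No library had Cre with intact Dot1l, so an effect of Cre and one of the deletion cannot be told apart. Since the labels name no separate cultures or animals for the libraries, p-values measure the spread between these libraries, which may be technical.

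Immediate early genes are transcribed within minutes of a growth factor or cytokine signal, without new protein synthesis. MAP kinases act on SRF, ELK and CREB factors at their promoters, and the RNAs are short-lived. The EGR proteins are zinc finger transcription factors that bind closely similar GC-rich sites and are known in myeloid cells for a part in macrophage differentiation. FOS and FOSB pair with JUN, JUNB or JUND to form the AP-1 dimers.

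The start regions of 5 members are shown first because their groups did not overlap: Egr2 and Fos were higher in every Dot1l-deleted library, and Jun, Junb and Ier3 were lower in every one. Many other genes did the same. Among genes with a mean of at least 1 FPKM, 10.7% were higher and 34.1% lower without overlap. Among genes below that mean, such as Egr2, the shares were 14.3% and 8.03%. Jun overlapped once the libraries were scaled, as described below. Of the 10 genes, 7 have a window used here from the RefSeq promoter table, and none was used for Egr1, Egr3 and Ier2. Windows on the chromosome of Egr1 were left out. Each sequence is the 250 bases before a RefSeq transcription start, on the strand of the gene, in build GRCm38.p6, while the submitters' processing notes name mm9. Egr2 lies at chr10:67537619-67537868 on the plus strand and is the first by position of its 5 windows among those with the most motif matches. Fos lies at chr12:85473640-85473889 on the plus strand and Jun at chr4:95052223-95052472 on the minus strand. Junb lies at chr8:84978749-84978998 on the minus strand and Ier3 at chr17:35821463-35821712 on the plus strand. Capitals mark matches on either strand to 7 motifs. These are the CArG box, which SRF binds, the cyclic AMP response element TGACGTCA and its core TGACG, which CREB binds, the AP-1 site TGACTCA, the AP-1-like site TGACATCA known from the Jun promoter, the EGR site GCGNGGGCG and the TATA box TATAAA.
Egr2: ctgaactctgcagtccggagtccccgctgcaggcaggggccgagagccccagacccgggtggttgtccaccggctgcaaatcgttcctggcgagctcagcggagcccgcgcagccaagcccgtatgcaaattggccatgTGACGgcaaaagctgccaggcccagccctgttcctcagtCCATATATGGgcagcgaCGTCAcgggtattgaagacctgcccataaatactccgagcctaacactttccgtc
Fos: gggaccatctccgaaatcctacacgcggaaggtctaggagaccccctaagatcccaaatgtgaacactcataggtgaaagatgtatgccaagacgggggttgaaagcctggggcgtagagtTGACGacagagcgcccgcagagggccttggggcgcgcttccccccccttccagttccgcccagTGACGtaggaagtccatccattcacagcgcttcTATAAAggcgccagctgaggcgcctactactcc
Jun: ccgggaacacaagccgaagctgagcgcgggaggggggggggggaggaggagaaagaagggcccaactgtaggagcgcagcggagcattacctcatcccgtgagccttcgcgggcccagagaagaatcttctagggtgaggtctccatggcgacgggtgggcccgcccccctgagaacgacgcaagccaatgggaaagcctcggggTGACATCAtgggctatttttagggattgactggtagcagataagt
Junb: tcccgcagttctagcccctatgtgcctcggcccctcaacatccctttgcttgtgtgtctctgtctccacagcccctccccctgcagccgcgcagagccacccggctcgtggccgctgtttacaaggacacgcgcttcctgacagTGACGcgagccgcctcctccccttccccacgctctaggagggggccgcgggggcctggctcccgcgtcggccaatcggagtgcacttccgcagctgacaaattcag
Ier3: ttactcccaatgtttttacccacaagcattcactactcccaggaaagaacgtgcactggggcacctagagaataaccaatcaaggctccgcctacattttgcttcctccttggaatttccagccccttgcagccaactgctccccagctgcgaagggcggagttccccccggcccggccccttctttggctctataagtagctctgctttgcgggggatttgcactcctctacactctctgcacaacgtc

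The Egr2 window holds a CArG box, CCATATATGG, from 72 to 63 bases upstream of the start, with a TGACG core on either side of it. Of all 32851 windows of this length, 1.47% hold a CArG box and 17.8% hold TGACG. The Egr2 window was picked for its matches, and the windows behind these shares were not, so the 2 cannot be compared directly. The 5 Egr2 windows held 3, 3, 3, 1 and 0 matches. The Fos window holds 2 TGACG cores and a TATAAA at 33 to 28 bases upstream, a motif in 12.4% of all windows. The Jun window holds TGACATCA at 45 to 38 bases upstream, as 2.93% of all windows do. The Junb window holds 1 TGACG, and the Ier3 window holds none of the 7 motifs. TGACGTCA, which contains the core, is in 1.55% of all windows and TGACTCA in 4.46%, and neither is in a window of these members. The EGR site is in 4.7% of all windows and, among the members, in that of Fosb. A match describes letters and not a bound site, and a missing match says only that these letters are not in this window.

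Dot1l (ENSMUSG00000061589) was at 8.24, 8.17 and 5.80 FPKM in the Dot1l-deleted libraries, against 20.2, 22.6 and 19.6 FPKM in the control libraries. The values of genes with very few reads put the depth at roughly 20300000 to 27600000 fragments per library. In the third Dot1l-deleted library 39.0% of the summed FPKM was in the 10 highest rows, which took 6.59% to 10.8% in each of the other 5 libraries, and most other genes lay lower there. Over all 11924 tested genes, the log2 fold change had a median of -0.16 as deposited, and 0.0011 after median-of-ratios scaling, which gives the scaled values below. That library was the lowest of its group for 7 of the 10 genes as deposited. After scaling it was the lowest for 1 of 10 and the highest for 6 of 10, and the second Dot1l-deleted library was the lowest for 8 of 10.

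The groups also differed in maturation markers, and in bulk RNA fewer cells of a type and less RNA per cell cannot be told apart. The summed FPKM of 11 stem and progenitor genes was 187 to 265 in Dot1l-deleted libraries and 1273 to 1305 in control libraries, with all 10 tested genes lower. Cd34, a surface antigen of myeloid progenitors, averaged 123 FPKM in Dot1l-deleted and 750 FPKM in control libraries. Kit, the SCF receptor gene, picked after its values were seen, averaged 57.6 FPKM in Dot1l-deleted and 117 FPKM in control libraries, so both markers of the labelled cell type were present in both groups. The sum of 14 neutrophil genes was 24294 to 29931 FPKM in Dot1l-deleted and 1969 to 2253 FPKM in control libraries, with 13 of 13 tested genes higher. The sum of 13 monocyte and macrophage genes was 475 to 557 FPKM in Dot1l-deleted and 140 to 158 FPKM in control libraries, with 6 of 9 tested genes higher and 1 lower. Lyz2, the lysozyme gene of myeloid cells, held most of that monocyte sum, at 383 ± 25.8 FPKM in Dot1l-deleted and 53.4 ± 10.7 FPKM in control libraries (SD, n = 3 each). The lower gene of that list was the chemokine receptor gene Ccr2. All tested neutrophil genes were thus higher and all tested progenitor genes lower, while the monocyte list was mixed. The sum of 12 mast cell and basophil genes was 1600 to 2316 FPKM in Dot1l-deleted and 2542 to 2790 FPKM in control libraries (4 of 10 tested genes higher, 4 lower). The sum of 12 erythroid and megakaryocyte genes was 125 to 162 FPKM in Dot1l-deleted and 183 to 195 FPKM in control libraries (4 of 11 higher, 5 lower). The sum of 10 stromal and endothelial genes was 55.4 to 63.4 FPKM in Dot1l-deleted and 66.4 to 74.9 FPKM in control libraries (1 of 4 higher, 1 lower). Of 12 B, T and NK cell genes, 11 were under 1 FPKM in every library, and Cd3g, Cd8a and Ncr1 were listed at 0 in all 6. The sum of these 12 was 4.45 to 6.09 FPKM in Dot1l-deleted and 1.51 to 1.995 FPKM in control libraries, with the 1 tested gene higher. The part of these differences in the results on the 10 genes was not tested.

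Among the 10 genes, Egr1, Ier3, Junb and Ier2 fell after Dot1l deletion, Egr1 by far the most, while Egr2, Egr3 and Fos were higher in all 3 Dot1l-deleted libraries at low levels. The 7 genes with a mean of at least 1 FPKM over the 6 libraries were tested with limma on log2(FPKM + 1), with a call at an adjusted p under 0.05, and Egr2, Egr3 and Fosb were below that filter. The 4 of 7 called lower stand beside 12.2% of all tested genes called lower, and the 0 of 7 called higher beside 7.43% called higher, 19.7% in all. At an unadjusted p under 0.05, limma had 0 members higher and 5 lower, beside 10.3% and 22.1% of all tested genes. The filter is on the mean of all 6 libraries and left out Egr3, which averaged 1.27 FPKM in Dot1l-deleted and 0.161 FPKM in control libraries, so the 7 are not the whole set. Without any test, the groups did not overlap for 8 of the 10 genes, 3 higher and 5 lower in Dot1l-deleted libraries. Among all 20568 genes above 0 in some library, 12.2% were higher and 23.2% lower without overlap. Those shares were 10.7% and 34.1% among genes with a mean of at least 1 FPKM, where 1 of 7 members was higher and 5 were lower, and 14.3% and 8.03% among genes below it, where 2 of 3 members were higher. The share of lower members thus stands against a background in which many genes were lower. After scaling, Jun overlapped as well, leaving 3 genes higher and 4 lower, beside 23.7% and 19.2% of all genes. With scaling, limma called 1 of the 7 members higher and 4 lower, beside 23% and 22.3% of all tested genes.

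**Figure D1:**
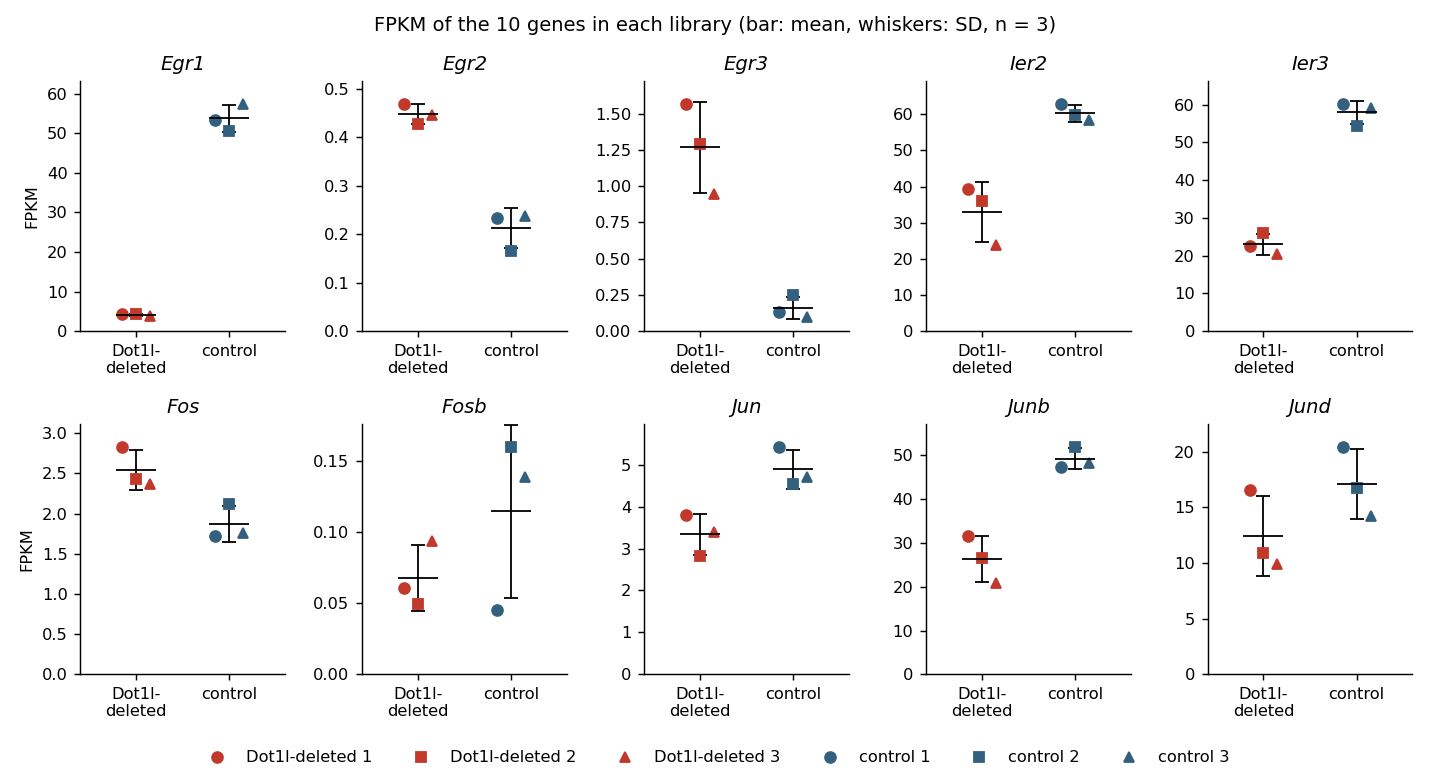
FPKM of each of the 10 genes (vertical axes, each from 0 to its own maximum) in the 3 Dot1l-deleted and 3 control libraries, with a point per library, a bar for the mean and whiskers for the SD (n = 3). Egr1 lies at 3.92 to 4.34 FPKM in Dot1l-deleted and 50.7 to 57.4 FPKM in control libraries, while Egr2, Egr3 and Fos are higher in all Dot1l-deleted libraries.

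The 3 Egr genes differed in direction. Egr1 (ENSMUSG00000038418), a widely signal-induced member of the family, was at 4.34, 4.30 and 3.92 FPKM in the Dot1l-deleted libraries, against 53.3, 50.7 and 57.4 FPKM in the control libraries. All Dot1l-deleted libraries lay far below the lowest control library, and each group was tight, with a coefficient of variation of 5.53% in Dot1l-deleted and 6.33% in control libraries. The mean of Egr1 was 12.8-fold lower, at 4.19 ± 0.232 FPKM in Dot1l-deleted and 53.8 ± 3.41 FPKM in control libraries (SD, n = 3 each). Its log2 fold change was -3.40 (SE 0.131, limma adjusted p = 1.899e-07), and -3.23 after scaling. By log2 fold change it ranked 26 of the 11924 tested genes, counted from the lowest. In Dot1l-deleted libraries Egr1 exceeded 23.1% of the tested genes, against 82.2% in control libraries.

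Egr2 and Egr3 encode the EGR factors known from nerve myelination and from lymphocyte and muscle spindle development. Egr3 (ENSMUSG00000033730) was at 1.57, 1.29 and 0.943 FPKM in the Dot1l-deleted libraries, against 0.133, 0.249 and 0.101 FPKM in the control libraries. The groups were well apart, with a 7.87-fold higher mean after deletion, on values worth about 100 to 171 reads per library in Dot1l-deleted and 10 to 26 reads in control libraries. Among 3809 genes with a mean of 0.1 to 1 FPKM, 292 (7.67%) had a ratio at least as high. Egr2 (ENSMUSG00000037868) was at 0.469, 0.428 and 0.445 FPKM in the Dot1l-deleted libraries, against 0.234, 0.164 and 0.238 FPKM in the control libraries. Every Dot1l-deleted library was above every control library, and the mean was 2.11-fold higher, on about 30 to 39 reads in Dot1l-deleted and 13 to 22 reads in control libraries. With no filter on low values, limma gave Egr3 a log2 difference of 0.96 (SE 0.117, adjusted p = 0.00498) and Egr2 one of 0.26 (SE 0.0392, adjusted p = 0.0112). That setting called 6.52% of 20568 genes higher and 6.68% lower. With no filter and a pseudocount of 0.1, Egr3 had a log2 fold change of 2.40 (adjusted p = 0.00608) and Egr2 one of 0.82, which did not pass (adjusted p = 0.0515).

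The makeup of Egr RNA within a library, which does not move with the scaling of a library, differed between the groups. Egr1 made up 68.1%, 71.4% and 73.9% of the summed FPKM of the 3 Egr genes in Dot1l-deleted libraries, against 99.3%, 99.2% and 99.4% in control libraries. Egr1 was thus the most abundant Egr RNA in every library, and the rest of the sum was larger after deletion. Egr3 averaged 21.3 ± 3.42% of the sum in Dot1l-deleted and 0.303 ± 0.163% in control libraries, and Egr2 averaged 7.61 ± 0.679% in Dot1l-deleted and 0.390 ± 0.0600% in control libraries (SD, n = 3 each). The sum itself was 6.38, 6.03 and 5.31 FPKM in Dot1l-deleted libraries, against 53.7, 51.1 and 57.8 FPKM in control libraries. The mean share of Egr1 differed by -28.2 percentage points, with an exact two-sided permutation p = 0.1, the smallest that 3 against 3 libraries allow. Adjusted over the 4 such ratios computed, this permutation p was 0.2.

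**Figure D2:**
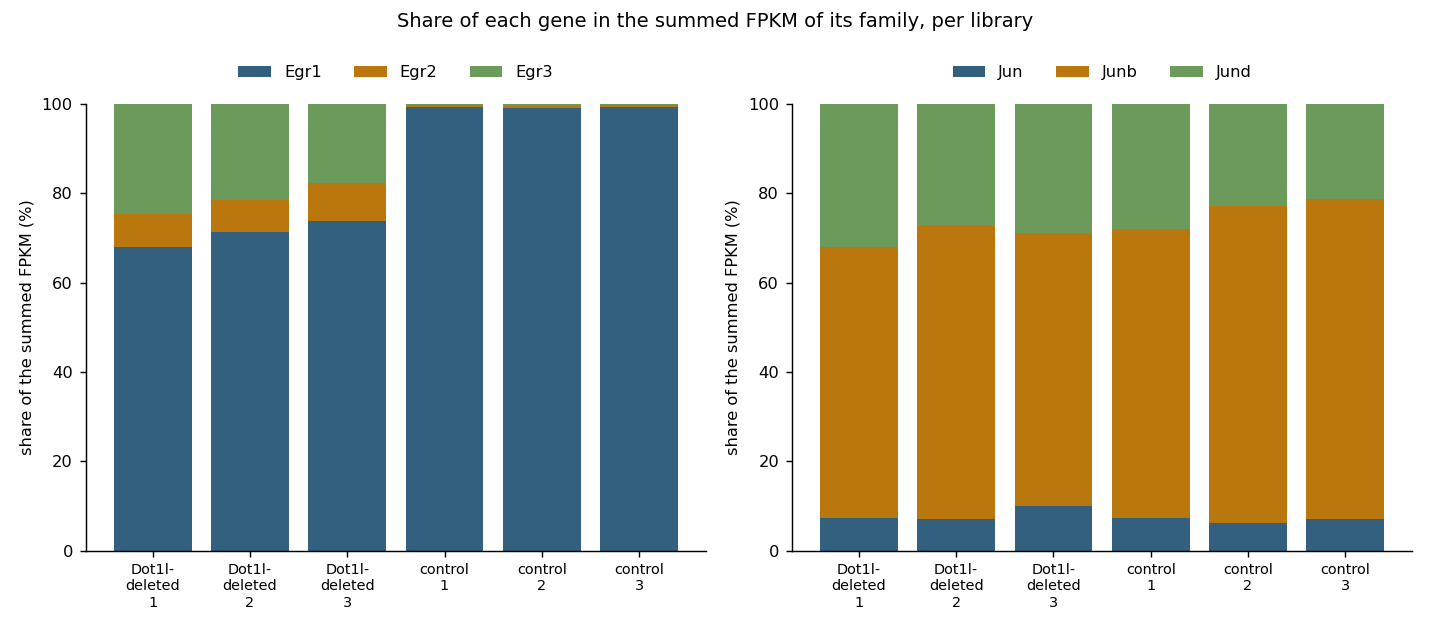
Share of each gene in the summed FPKM of its family (vertical axis, %) for the Egr genes and the Jun genes, with 1 stacked bar per library, Dot1l-deleted libraries left of control libraries. Egr1 takes 68.1% to 73.9% of the Egr sum in Dot1l-deleted and 99.2% to 99.4% in control libraries, while the order Junb, Jund, Jun holds in all 6 libraries.

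Of the AP-1 genes, Junb fell, and the other 4 did not pass the test or were not tested. Junb (ENSMUSG00000052837), whose product is an AP-1 subunit that restrains myeloid proliferation in mice, was at 31.5, 26.5 and 21.0 FPKM in the Dot1l-deleted libraries, against 47.3, 51.8 and 48.2 FPKM in the control libraries. The groups did not overlap, and as deposited the Dot1l-deleted libraries spread more. After scaling the values were 30.0, 25.5 and 27.7 FPKM in Dot1l-deleted and 43.7, 48.8 and 45.8 FPKM in control libraries, without that wider spread. The mean of Junb was 1.87-fold lower, with a log2 fold change of -0.89 (SE 0.173, limma adjusted p = 0.00429), and -0.71 after scaling. Junb overlaps Prdx2, a peroxiredoxin gene on the opposite strand, and no source used here says whether reads were counted by strand. Prdx2 averaged 170 ± 28.5 FPKM in Dot1l-deleted and 260 ± 7.08 FPKM in control libraries (SD, n = 3 each), and its log2 fold change was -0.62 (SE 0.179, limma adjusted p = 0.0337). The part of Prdx2 reads in the Junb values was not tested.

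Jun (ENSMUSG00000052684), which encodes the founding Jun subunit, was at 3.80, 2.83 and 3.39 FPKM in the Dot1l-deleted libraries, against 5.42, 4.54 and 4.71 FPKM in the control libraries. The groups did not overlap as deposited, and the log2 fold change of -0.44 did not pass (SE 0.151, limma adjusted p = 0.0653). Without the third Dot1l-deleted library it passed, at -0.45 with a limma adjusted p = 0.0430, in a setting that called 21.1% of genes lower and 17.1% higher. After scaling it did not, at -0.29 with a limma adjusted p = 0.160. Jund (ENSMUSG00000071076), the subunit gene that is usually the least signal-dependent, was at 16.6, 10.9 and 9.90 FPKM in the Dot1l-deleted libraries, against 20.4, 16.8 and 14.2 FPKM in the control libraries. The first Dot1l-deleted library overlapped the control range, and the log2 fold change of -0.45 did not pass (SE 0.202, limma adjusted p = 0.157). Without that library it passed, at -0.65 with a limma adjusted p = 0.0292, where 1466 of 11870 genes were called lower. Among genes with a mean of at least 5 FPKM it passed as well (limma adjusted p = 0.0393), as did 1307 of 8924 genes called lower. Jund passed in these 2 of 19 alternatives only. After scaling it did not, at -0.27 with a limma adjusted p = 0.240. Without the third Dot1l-deleted library it did not either, at -0.31 with a limma adjusted p = 0.312. Jun and Jund also overlap annotated genes on the opposite strand, Junos and Gm11175, which were not analysed here.

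Fos (ENSMUSG00000021250), the signal-induced partner of the JUN proteins, was at 2.83, 2.43 and 2.36 FPKM in the Dot1l-deleted libraries, against 1.73, 2.12 and 1.76 FPKM in the control libraries. Every Dot1l-deleted library was above every control library, by a small margin. The mean was 1.36 times that of the control libraries, and the log2 fold change of 0.30 did not pass as deposited (SE 0.162, limma adjusted p = 0.228). After scaling the log2 fold change of Fos was 0.43 (SE 0.112) and passed, with a limma adjusted p = 0.0231, where 23% of all tested genes were called higher. Fosb (ENSMUSG00000003545), its close relative, was at 0.0608, 0.0492 and 0.0937 FPKM in the Dot1l-deleted libraries, against 0.0454, 0.160 and 0.139 FPKM in the control libraries. These overlapping values stand for about 6 to 24 reads per library. With no filter on low values, Fosb did not pass (limma adjusted p = 0.461).

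**Figure D3:**
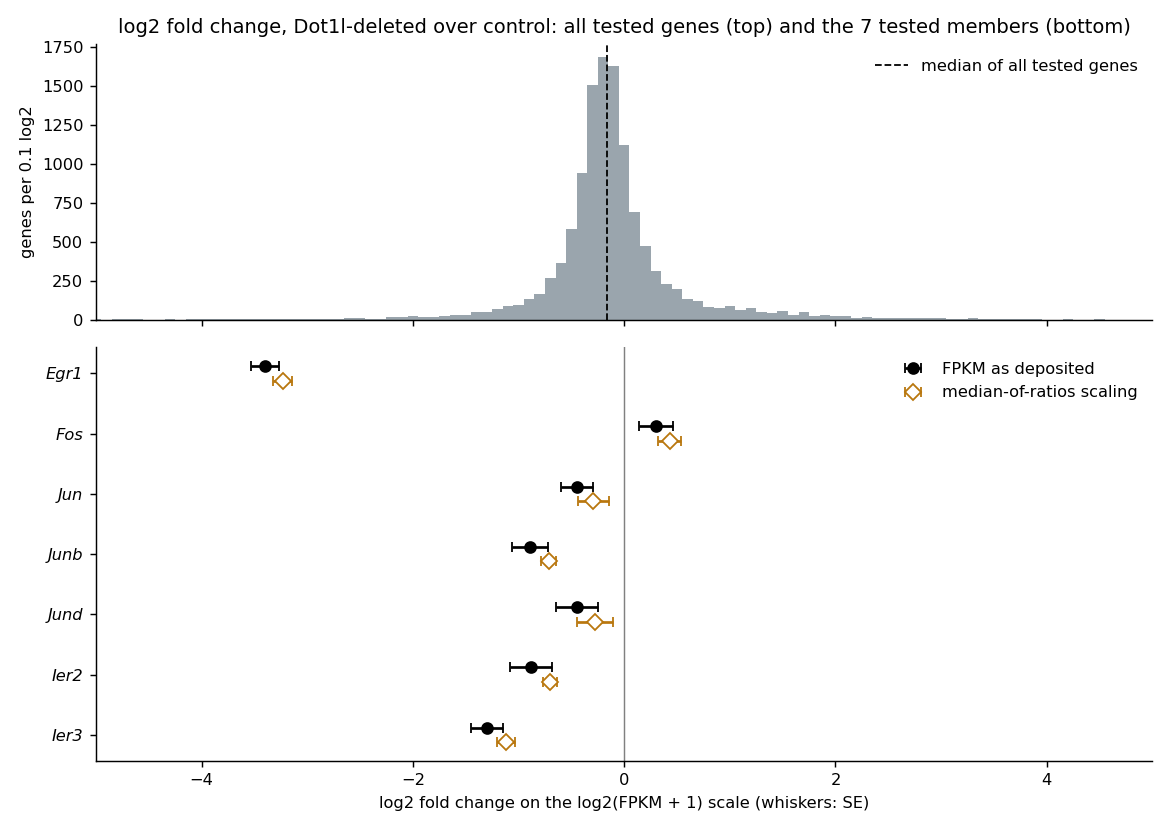
Top, number of tested genes per 0.1 step of log2 fold change, Dot1l-deleted over control, with the median of all genes as a dashed line; bottom, log2 fold change of the 7 tested members as deposited (filled) and after median-of-ratios scaling (open), with whiskers for the SE. Egr1 lies at -3.40, Ier3 at -1.30, Junb at -0.89 and Ier2 at -0.88 as deposited, and Fos is the one tested member above 0.

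The balance of Jun to Fos RNA was lower in every Dot1l-deleted library. The summed FPKM of Jun, Junb and Jund over that of Fos and Fosb was 17.9, 16.3 and 13.9 in the Dot1l-deleted libraries, against 41.3, 32.0 and 35.3 in the control libraries. The groups did not overlap, and the mean log2 ratio differed by -1.17, with an exact two-sided permutation p = 0.1 (0.2 adjusted over the 4 ratios). With Fosl1 and Fosl2, the other Fos family genes, added to the Fos sum, the difference was -0.66. Within the Jun family, Junb held 62.6 ± 2.81% of the sum in Dot1l-deleted and 69.1 ± 3.88% in control libraries, and Jund held 29.4 ± 2.43% in Dot1l-deleted and 24.0 ± 3.50% in control libraries (SD, n = 3 each). The share of Jund was 32.0%, 27.2% and 28.9% in Dot1l-deleted libraries, against 27.9%, 22.9% and 21.2% in control libraries, and these ranges overlapped. Its difference of 5.36 percentage points had an exact two-sided permutation p = 0.2. Fos held 97.4 ± 1.02% of the sum of Fos and Fosb in Dot1l-deleted and 94.4 ± 2.65% in control libraries (SD, n = 3 each), with an exact two-sided permutation p = 0.2. With Fosl1 and Fosl2 in the sum, Fos held 34.5 ± 1.97% in Dot1l-deleted and 23.5 ± 1.96% in control libraries (SD, n = 3 each), without overlap and with an exact two-sided permutation p = 0.1.

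Both Ier genes fell. Ier3 (ENSMUSG00000003541), which encodes a short-lived protein tied to cell survival and ERK signalling, was at 22.7, 26.0 and 20.5 FPKM in the Dot1l-deleted libraries, against 60.2, 54.5 and 59.1 FPKM in the control libraries. The highest Dot1l-deleted library lay well below the lowest control library. The mean of Ier3 was 2.51-fold lower, with a log2 fold change of -1.30 (SE 0.152, limma adjusted p = 0.000157), and -1.12 after scaling. Ier2 (ENSMUSG00000053560), which encodes a small nuclear protein, was at 39.3, 36.0 and 23.8 FPKM in the Dot1l-deleted libraries, against 62.9, 59.9 and 58.3 FPKM in the control libraries. The groups did not overlap, and the third Dot1l-deleted library was the lowest. The mean of Ier2 was 1.83-fold lower, with a log2 fold change of -0.88 (SE 0.196, limma adjusted p = 0.00946), and -0.70 after scaling.

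Set against Junb in the same library, Egr1 and Ier3 were lower after deletion without overlap, and Ier2 was not. The ratio of Egr1 to Junb was 0.138, 0.162 and 0.187 in the Dot1l-deleted libraries, against 1.13, 0.978 and 1.19 in the control libraries. The ratio of Ier3 to Junb was 0.720, 0.983 and 0.981 in the Dot1l-deleted libraries, against 1.27, 1.05 and 1.23 in the control libraries. The ratio of Ier2 to Junb was 1.25, 1.36 and 1.13 in the Dot1l-deleted libraries, against 1.33, 1.15 and 1.21 in the control libraries. The ratio of Ier2 to Junb overlapped between the groups, and these 3 ratios were not tested. Junb itself fell after deletion, and how many other genes separate when set against Junb was not counted.

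By mean FPKM, which is per length, the order in the Dot1l-deleted libraries was Ier2, Junb, Ier3, Jund, Egr1, Jun, Fos, Egr3, Egr2 and Fosb. The ranges of the first 3 overlapped with their neighbours, and all later neighbours were apart. In the control libraries the order was Ier2, Ier3, Egr1, Junb, Jund, Jun, Fos, Egr2, Egr3 and Fosb. There the first 4 overlapped with their neighbours, as did the last 3. Egr1 therefore stood among the 4 most abundant members in control libraries and below Jund in Dot1l-deleted libraries. Egr3 stood below Fos in both groups, and its range was apart from those of Egr2 and Fosb in the Dot1l-deleted libraries.

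Most relatives and partners of the EGR and AP-1 factors did not pass the test, as held for most genes, 19.7% of which were called. Of 22 such genes 15 were tested, with 1 higher, 1 lower and a median log2 fold change of -0.13, beside -0.16 over all tested genes. Of all tested genes, 7.43% were called higher and 12.2% lower. After scaling 3 were higher and 3 lower, with a median of 0.011, beside 23% and 22.3% of all tested genes. Nab2, which encodes a corepressor that binds EGR proteins and is itself known as an EGR target, averaged 21.2 ± 3.83 FPKM in Dot1l-deleted and 47.2 ± 3.70 FPKM in control libraries (SD, n = 3 each). It fell, with a log2 fold change of -1.13 (SE 0.168, limma adjusted p = 0.000798). Its paralog Nab1 averaged 18.8 ± 3.20 FPKM in Dot1l-deleted and 24.5 ± 0.836 FPKM in control libraries and did not pass (limma adjusted p = 0.129), but was called lower in 6 of 17 alternatives, with a limma adjusted p = 0.0145 after scaling and 0.0179 without the third Dot1l-deleted library. Jdp2, which encodes a JUN dimerisation partner that represses AP-1, rose to 16.9 ± 2.45 FPKM in Dot1l-deleted libraries, against 11.9 ± 0.0485 FPKM in control libraries (SD, n = 3 each). Its log2 fold change of 0.46 (SE 0.144, limma adjusted p = 0.0477) lost its call in 8 of 17 alternatives, among them those without the first or the second Dot1l-deleted library or any 1 control library. Mafk, for a small MAF partner of AP-1-like factors, averaged 10.02 ± 1.73 FPKM in Dot1l-deleted and 13.6 ± 0.419 FPKM in control libraries (limma adjusted p = 0.0808) and was likewise called lower in 6 of 17 alternatives, with a limma adjusted p = 0.00435 after scaling. Atf2, for a JUN dimer partner, averaged 26.3 ± 4.01 FPKM in Dot1l-deleted and 33.3 ± 1.32 FPKM in control libraries (limma adjusted p = 0.165).

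Other immediate early genes went both ways. Of 42 such genes 36 were tested, with 6 higher, 8 lower and a median log2 fold change of -0.05. Beside them, 7.43% of all tested genes were called higher and 12.2% lower. After scaling 15 were higher and 8 lower, with a median of 0.10, beside 23% and 22.3% of all tested genes. Rgs2, for a regulator of G protein signalling, rose 3.07-fold to 43.4 ± 8.40 FPKM in Dot1l-deleted libraries, against 14.1 ± 0.735 FPKM in control libraries, and its log2 fold change was 1.54 (SE 0.164, limma adjusted p = 8.003e-05). Zfp36l1, for a protein that speeds decay of AU-rich RNAs, rose 2.76-fold to 3.63 ± 0.421 FPKM in Dot1l-deleted libraries, against 1.32 ± 0.0247 FPKM in control libraries (limma adjusted p = 0.00129). Ppp1r15a, for a phosphatase subunit of the stress response, fell 2.68-fold to 8.73 ± 1.25 FPKM in Dot1l-deleted libraries, against 23.4 ± 1.76 FPKM in control libraries (limma adjusted p = 9.705e-05). Of the 4 tested MAP kinase phosphatase genes of this list, Dusp1 and Dusp2 fell, and Dusp5 and Dusp6 did not pass. Dusp1 averaged 1.98 ± 0.311 FPKM in Dot1l-deleted and 5.11 ± 0.173 FPKM in control libraries (limma adjusted p = 0.000657), and Dusp2 averaged 9.02 ± 2.45 FPKM in Dot1l-deleted and 20.6 ± 0.562 FPKM in control libraries (limma adjusted p = 0.00151; SD, n = 3 each for the genes of this list). Dusp5 averaged 3.21 ± 0.235 FPKM in Dot1l-deleted and 4.93 ± 0.824 FPKM in control libraries (limma adjusted p = 0.0535). Dusp6 averaged 8.91 ± 1.24 FPKM in Dot1l-deleted and 7.71 ± 0.854 FPKM in control libraries (limma adjusted p = 0.418), and after scaling it was called higher, with a log2 fold change of 0.35 and a limma adjusted p = 0.0112.

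All 35 genes of the signalling route to SRF, ELK and CREB were tested, with 1 higher, 5 lower and a median log2 fold change of -0.11. After scaling 10 were higher and 8 lower, with a median of 0.06. The shares over all tested genes were 7.43% higher and 12.2% lower, and 23% and 22.3% after scaling. Rps6ka1, for the kinase RSK1 that acts below ERK, rose 2.19-fold, averaging 110 ± 17.8 FPKM in Dot1l-deleted and 50.2 ± 2.73 FPKM in control libraries (limma adjusted p = 0.00116). Elk4, for an SRF partner at CArG boxes, fell 1.803-fold, averaging 5.88 ± 0.439 FPKM in Dot1l-deleted and 10.6 ± 1.18 FPKM in control libraries (limma adjusted p = 0.00299). These are a kinase gene that was higher and a promoter-bound factor gene that was lower. Mapk8, for the kinase JNK1, averaged 11.8 ± 2.09 FPKM in Dot1l-deleted and 20.7 ± 0.482 FPKM in control libraries (limma adjusted p = 0.00496). Sos1, for a RAS exchange factor, averaged 7.09 ± 0.783 FPKM in Dot1l-deleted and 11.6 ± 0.727 FPKM in control libraries (limma adjusted p = 0.00741). Crtc3, for a CREB coactivator, averaged 5.57 ± 0.736 FPKM in Dot1l-deleted and 8.60 ± 0.567 FPKM in control libraries (limma adjusted p = 0.0183; SD, n = 3 each for these genes). The call of Crtc3 was lost when any 1 control library was left out.

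Heat shock genes, a stress response set that is also induced rapidly, gave no call as deposited, where 19.7% of all tested genes were called. Of 12 such genes 11 matched a row and 9 were tested, and 0 were higher and 0 lower by limma. The median log2 fold change was -0.14, beside -0.16 over all tested genes. At an unadjusted p under 0.05, 0 were higher and 1 lower, beside 10.3% and 22.1% of all tested genes. After scaling 0 were called higher and 1 lower, beside 23% and 22.3%. Hsph1, for a large chaperone of the HSP110 class, averaged 63.9 ± 12.7 FPKM in Dot1l-deleted and 86.0 ± 1.03 FPKM in control libraries (limma adjusted p = 0.119). It was the gene called after scaling. Hsf1, for the heat shock transcription factor, averaged 24.6 ± 3.86 FPKM in Dot1l-deleted and 30.3 ± 1.54 FPKM in control libraries (limma adjusted p = 0.218). For the cochaperone genes Dnajb1 and Hspe1 the limma adjusted p was 0.341 and 0.360 in that order.

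**Figure D4:**
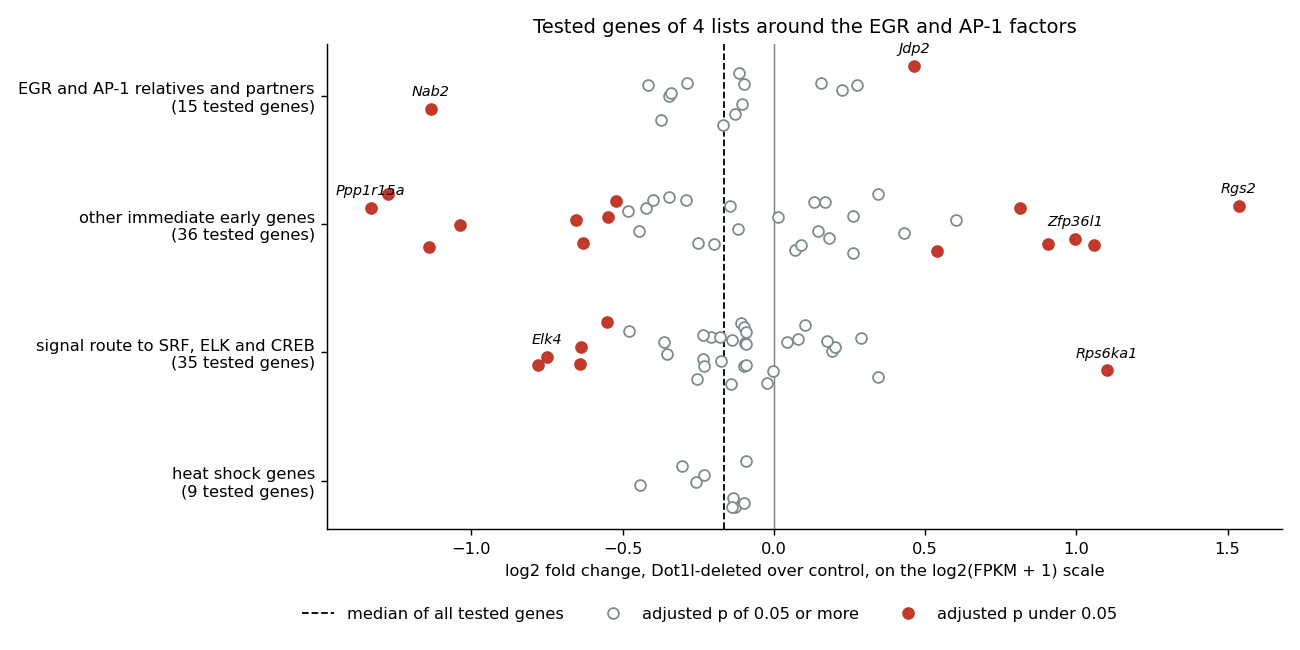
Log2 fold change, Dot1l-deleted over control, of each tested gene of 4 lists (rows), with filled points for an adjusted p under 0.05, open points otherwise and the median of all tested genes as a dashed line. The relatives and partners have 1 filled point on either side of 0, the other immediate early genes 6 above and 8 below, the signalling route 1 above and 5 below, and the heat shock genes none. Of all tested genes, 7.43% were called higher and 12.2% lower.

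The tested genes whose log2 values over the 6 libraries were most like those of Egr1 were Epha3, Hoxa11, Rab38, Abcb1a and Ssbp2, with Pearson correlations of 0.99928 to 0.99956. The difference between the groups sets this measure. For the deviations from the group means, which leave that difference out, they were Rundc3b, AC154607.2, Spink4, AC165425.2 and Cyp2u1, at 0.98543 to 0.98955 over the same 6 libraries. AC154607.2 was at 0 FPKM in the third Dot1l-deleted and the second control library. These correlations are descriptions over 2 groups of 3 libraries, and within a library all genes share its depth and scaling. They were picked as the highest from 11924 tested genes, so their size carries no weight of its own.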

How the data were processed

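RNA of the 6 libraries was prepared with a stranded mRNA kit, per the labels' protocols. The authors deposited 1 FPKM value per Ensembl gene and library. CASAVA 1.8.2, GSNAP, SAMtools, Cuffdiff and mm9 are named in the submitters' processing notes, with no role or order. A placeholder of 999999999 stood in 378 genes in at least 1 library, none of them a member, and these were left out, leaving 31248. FPKM was read as deposited, so a few very abundant rows lower all others in a library, as in the third Dot1l-deleted one. Depth and read numbers are estimates from the FPKM worth of 1 read and are approximate.

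Genes with a mean of at least 1 FPKM entered a linear model on log2(FPKM + 1) in limma 3.58.1 (R 4.3.3), with variances moderated along the trend with the mean, two-sided tests and Benjamini-Hochberg adjustment over all 11924. Fold changes on that scale understate the change of low genes, and other folds compare mean FPKM. Ratios within a library were tested by exact permutation with SciPy 1.17.1 in Python 3.11.15. The fit was tested on simulated data. The members and lists were chosen with earlier results of these data known. Besides Dot1l and the members, the named genes were up to 5 per list with the smallest adjusted p, the 5 most like Egr1 by either measure, with genes named Gm or Rik and small RNA rows passed over, and the highest marker genes, of which Cd34 and Lyz2 are given. Kit, Ccr2, Cd3g, Cd8a, Ncr1, Dusp5 and Dusp6 were named after their values were seen, and Prdx2 for its overlap with Junb. One list gene whose deposited symbol differs from its current one is counted but not named. Alternatives covered the pseudocount (0.1 and 5), the filter (none, and at least 5 FPKM), median-of-ratios and quantile scaling, no trend, sample weights, a replicate block and each library left out. Gene overlaps came from GENCODE annotation, and promoter windows from RefSeq.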

Additional observations from a re-analysis of the deposited data

How the results depend on the processing

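Egr1, Junb, Ier2 and Ier3 were called lower in all 19 alternatives run for each, with Egr1 between -3.44 and -3.35 when single libraries were left out. No member changed direction. Fos, Jun and Jund passed in 4, 3 and 2 alternatives, and with no filter Egr3 passed in all 3 settings and Egr2 in 2 of 3. Further settings, no filter with scaling and no filter with a pseudocount of 0.1, were chosen after seeing the data. Members called higher were 2 with no filter, beside 6.52% of all genes, and 1 with median-of-ratios scaling, beside 23%. Quantile scaling and sample weights gave 1 each, beside 2412 and 2531 of 11924 genes. No filter with scaling gave 3, and no filter with a pseudocount of 0.1 gave 1. Shares over all genes are not given here for those added settings. With single libraries left out, 0 members were called higher and 4 to 5 lower.

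Over all genes, calls higher were 1342 with no filter, 2740 with median-of-ratios scaling, 2412 with quantile scaling, 2531 with sample weights, 2316 with scaling without the third Dot1l-deleted library and 700 to 2041 with single libraries left out. Calls lower were 2661, 3196, 3185 and 2243 in the middle 4 of these settings in the same order, and 1012 to 2517 with single libraries left out. With no filter, 1373 were lower.

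In median-of-ratios scaling, quantile scaling, sample weights and scaling without the third Dot1l-deleted library, in this order, relatives and partners had 3, 3, 3 and 3 higher and 3, 4, 5 and 3 lower. Other immediate early genes had 15, 15, 15 and 14 higher, and 14 lower with sample weights. The signalling route had 10, 10, 10 and 10 higher, and 8 and 8 lower in the first pair. Heat shock genes had 1, 4, 1 and 1 lower. Relatives and partners had 0 higher with a pseudocount of 5 and with no trend. With single libraries left out, relatives and partners had 0 to 3 higher and 1 to 3 lower, other immediate early genes 5 to 13 and 4 to 10, the signalling route 1 to 9 and 3 to 7, and heat shock genes 0 to 1 lower. The differences of the shares of Egr1, Jund and Fos were then -29.55 to -26.65, 3.937 to 7.313 and 2.15 to 4.512 points, and that of the log2 ratio of Jun to Fos genes -1.259 to -1.075. With Fosl1 and Fosl2 added, the share of Fos differed by 10.99 points and the log2 ratio by -0.66. The cause of these moves was not tested.

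Replicate numbers showed no pairing in these values. Deviations of same-numbered libraries correlated at -0.0301, -0.0377 and 0.0128, and no library correlated best with its own number. Such low correlations cannot settle whether the cultures were paired. With the replicate block 1152 genes were called higher and 1801 lower, and the members had 0 higher and 4 lower. With the block and median-of-ratios scaling, 2302 genes were higher, and relatives and partners had 2 higher and 3 lower, other immediate early genes 15 higher, the signalling route 9 higher and 8 lower, and heat shock genes 1 lower. Exact sign-flip permutation tests of the 4 ratios with the block cannot go below p = 0.25.

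Read numbers are low for Egr2, Egr3 and Fosb, which rest on roughly 6 to 171 reads per library. Fos rests on roughly 90 to 164 reads per library, no more than Egr3 in the first 2 Dot1l-deleted libraries.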
